A study of Homo sapiens with 9 samples.

Results

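NF-κB is a family of dimeric transcription factors that is held in the cytoplasm by inhibitor proteins (IκB) until a kinase complex marks the inhibitor for destruction. Several of the genes that NF-κB switches on encode its own subunits and its inhibitors, so that the pathway limits itself. In keratinocytes it is known for its part in inflammation, cell survival and the balance between growth and differentiation. The expression of 10 genes of this system was followed here in HaCaT cells, an immortalized human keratinocyte line, of 16199 genes listed in at least 1 library. The genes were chosen by symbol and comprise the subunits NFKB1, NFKB2, RELA and RELB, the inhibitors NFKBIA and NFKBIE and the nuclear IκB protein NFKBIZ. The others are the ubiquitin-editing enzyme TNFAIP3, the ubiquitin ligase BIRC3 and the kinase adaptor TAB3. All 10 passed the count filter and were listed in all 9 libraries, so that no member was missing from any comparison.

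Confluent wild-type HaCaT cells were kept in serum-free medium alone (untreated) or in serum-free medium with EGF (10 nM) or bleogen pB1 (1 µM), a plant-derived EGF receptor agonist, for 24 h. Each group had 3 replicate libraries of polyadenylated RNA, and all came from the 1 cell line. The labels do not say whether replicates were separate cultures, so the p-values measure the spread between these samples, which may be technical. The doses of EGF and bleogen pB1 differ, so the comparison of both agents holds for these doses alone.

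Each library held between 20288417 and 21320994 expected counts, and 3 counts, taken as the smallest level that can be shown, amounted to 0.141 to 0.148 CPM (counts scaled to the TMM-adjusted library size). The 8 keratinocyte markers were present in every group, with summed levels of 12614 to 13879 CPM in untreated, 12280 to 12687 CPM in EGF-treated and 12459 to 14429 CPM in bleogen pB1-treated cells. The sums hide opposite shifts with EGF, where 4 markers were higher and 1 lower past the threshold used below (62.5%, beside 36.9% of all genes tested). The mean of KRT5 went from 7811 to 3604 CPM and that of KRT14 from 1578 to 2908 CPM. The 6 leukocyte markers summed to 12.4 to 13.1 CPM in untreated, 21.6 to 22.6 CPM in EGF-treated and 11.1 to 12 CPM in bleogen pB1-treated cells, mostly CD68, and CD3E was at 0 in the untreated and CD79A in the EGF-treated libraries. The 6 fibroblast markers summed to 7.62 to 9.31, 1.25 to 2.00 and 6.08 to 9.17 CPM in the same order, with COL1A2 and LUM at 0 under EGF and COL1A2 at 0 under bleogen pB1. The 6 melanocyte markers summed to 5.26 to 9.13 CPM over all libraries with TYR at 0 throughout and DCT and SOX10 at 0 outside the EGF group, and the 4 endothelial markers to 0.250 to 1.60 CPM with TEK at 0 in both treated groups. The part of these low signals in the results below was not tested. In bulk RNA a change in the share of cells and a change of RNA per cell cannot be told apart.

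Gene levels are compared per gene length as FPKM, and a level of one gene over libraries as CPM. In untreated cells RELA, which carries the transcription-activating domain of the classical dimer, had the highest FPKM of the 10 genes, at 41.5 ± 2.78 (SD, n = 3). TAB3 followed at 40.2 ± 1.5 FPKM and NFKBIA at 38.8 ± 0.246 FPKM, and these 3 genes could not be ordered because their ranges overlapped from one to the next. NFKB2 at 21.2 ± 0.455 FPKM and NFKB1 at 20 ± 2.2 FPKM formed the next pair, with overlapping ranges. RELB stood alone at 7.91 ± 0.490 FPKM. BIRC3 (4.91 ± 0.572 FPKM) overlapped with NFKBIE (4.39 ± 0.318 FPKM), and TNFAIP3 (3.36 ± 0.556 FPKM) with NFKBIZ (2.38 ± 0.378 FPKM). The highest mean level was 17.4 times the lowest in untreated cells, 25.7 times under EGF and 14.0 times under bleogen pB1. Under EGF the order changed to NFKB2 (55.5 ± 19.8 FPKM), RELA (51.5 ± 4.62), NFKBIA (36.6 ± 5.14), TAB3 (27.6 ± 2.69), NFKB1 (21.0 ± 0.717) and TNFAIP3 (18.1 ± 1.74). By the mean, TNFAIP3 moved from rank 9 to rank 6 and NFKB2 from rank 4 to rank 1. However, NFKB2 and RELA overlapped, and so did TNFAIP3 (16.36 to 19.84 FPKM) and the next gene, BIRC3 (7.3 to 22.11 FPKM). Under bleogen pB1 the leading genes were RELA (40.4 ± 2.29 FPKM), NFKBIA (39.1 ± 2.10) and TAB3 (28.2 ± 1.88), and TAB3 no longer overlapped with NFKBIA. The length by which the FPKM was divided was the same in all libraries for RELB, NFKBIA, NFKBIE and TAB3 and ranged from 6901.4 to 6932 for BIRC3 and from 3878.71 to 3934 for NFKBIZ.

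Promoter windows of 300 bases (250 before and 50 after the start of a transcript) were available from RefSeq on GRCh38.p14 for 8 of the 10 genes, in 13 windows. RELB and NFKBIE had no entry. They were searched on both strands for the κB consensus, the 10-base sequence that NF-κB dimers are known to bind, and overlapping matches were counted separately. A match was present in 8 of the 13 windows, against 11.3% of all 35116 windows of this length (3956 windows), and 2.04% of all windows held at least 2. The 8 windows with a match came from 6 of the 8 genes, and no background per gene was taken. The genes had been chosen as part of the NF-κB system, and the share was not tested. Matches per window were 0, 3 and 2 for NFKB2, 1 and 0 for NFKB1 and 1 and 1 for NFKBIZ. The single windows of TNFAIP3 and BIRC3 had 2 each and that of NFKBIA had 1, while RELA and TAB3 had none. RELB and NFKBIE, which rose under EGF, had no window, and a link between matches and fold changes was not tested. A match is a stretch of letters and not a measured binding site, and its absence says only that these letters are not in the window. Of the windows, 5 are shown with the matches in capitals. They come from NFKB2, TNFAIP3 and BIRC3, from a gene with a log2 fold change near 0 (NFKBIA) and from one that was lower with both agents (TAB3). They are chr10:102394328-102394627 (NFKB2, plus strand, 1 of its 3 windows, with 3 matches of which 2 overlap), chr6:137867009-137867308 (TNFAIP3, plus strand, 2 matches), chr11:102317234-102317533 (BIRC3, plus strand, 2 matches), chr14:35404700-35404999 (NFKBIA, minus strand, 1 match) and chrX:30889205-30889504 (TAB3, minus strand, no match), each written 5′ to 3′ on the strand of its gene.
NFKB2: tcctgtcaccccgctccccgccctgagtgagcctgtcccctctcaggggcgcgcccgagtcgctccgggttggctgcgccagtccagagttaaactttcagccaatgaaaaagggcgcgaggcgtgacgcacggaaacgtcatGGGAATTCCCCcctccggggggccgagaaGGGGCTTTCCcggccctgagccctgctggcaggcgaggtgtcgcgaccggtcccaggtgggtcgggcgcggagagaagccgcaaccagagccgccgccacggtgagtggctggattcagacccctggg
TNFAIP3: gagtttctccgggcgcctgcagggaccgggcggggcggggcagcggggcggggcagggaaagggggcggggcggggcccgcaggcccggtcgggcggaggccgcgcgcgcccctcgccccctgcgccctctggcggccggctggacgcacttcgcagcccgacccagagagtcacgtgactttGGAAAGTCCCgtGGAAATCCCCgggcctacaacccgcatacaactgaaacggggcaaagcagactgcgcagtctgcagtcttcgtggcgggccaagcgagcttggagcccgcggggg
BIRC3: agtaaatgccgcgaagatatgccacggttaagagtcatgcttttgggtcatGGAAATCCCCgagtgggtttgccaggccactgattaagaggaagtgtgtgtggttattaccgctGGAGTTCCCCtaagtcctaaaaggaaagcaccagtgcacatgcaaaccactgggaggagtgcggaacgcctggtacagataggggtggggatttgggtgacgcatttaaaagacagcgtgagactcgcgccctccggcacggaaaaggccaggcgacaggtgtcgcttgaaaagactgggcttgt
NFKBIA: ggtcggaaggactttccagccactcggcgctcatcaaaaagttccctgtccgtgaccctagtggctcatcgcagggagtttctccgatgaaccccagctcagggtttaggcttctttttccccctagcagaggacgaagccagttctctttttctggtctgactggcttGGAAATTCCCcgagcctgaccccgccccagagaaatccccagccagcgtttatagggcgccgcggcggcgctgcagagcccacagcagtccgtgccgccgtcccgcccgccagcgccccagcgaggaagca
TAB3: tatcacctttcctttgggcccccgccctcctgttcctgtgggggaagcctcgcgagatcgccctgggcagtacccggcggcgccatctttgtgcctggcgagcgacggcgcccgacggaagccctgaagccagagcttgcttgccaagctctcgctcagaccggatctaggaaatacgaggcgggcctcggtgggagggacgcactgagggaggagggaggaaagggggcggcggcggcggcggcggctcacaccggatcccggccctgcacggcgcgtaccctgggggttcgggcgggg
The matches of TNFAIP3 began 67 and 55 bases before the transcript start, those of BIRC3 199 and 135 bases, that of NFKBIA 81 bases, and those of NFKB2 in the window shown 107, 106 and 78 bases before it. Another window of NFKB2 (chr10:102395455-102395754) held matches that began 176 and 21 bases before its start.

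With EGF, 5 of the 10 genes rose and none fell past the threshold of an adjusted p of at most 0.05 and an absolute log2 fold change (log2FC) of at least 0.5. The genes that rose were TNFAIP3, BIRC3, NFKB2, NFKBIE and RELB. The other 5 were the subunits NFKB1 and RELA, the inhibitor NFKBIA, the nuclear IκB protein NFKBIZ, and TAB3. Of the 12394 genes tested, 36.9% passed the threshold in either direction and 15.1% rose, so the count of members in either direction was not far above the background, whereas all members that passed were higher. The median log2FC of the members was 0.56, beside -0.013 over all genes. All values come from edgeR's quasi-likelihood test on all 9 libraries with Benjamini-Hochberg adjustment over the genes tested, and log2FC is given with its standard error (SE). The 3 EGF libraries lay entirely above the untreated libraries for 6 members and below them for 1, while 70.4% of all genes tested did not overlap between these groups. For each gene without overlap the exact two-sided permutation test gave p = 0.1 (0.19 after Benjamini-Hochberg adjustment over the 30 tests of the members), and 0.1 is the smallest that 3 against 3 can give. With upper-quartile factors the genes called with EGF split into 1396 higher and 3221 lower in place of 1875 and 2703, and in EGF against bleogen pB1 into 1058 and 2613 in place of 1339 and 2225. The members that rose were called in every scaling. With upper-quartile factors TAB3 was also called with EGF, as lower (log2FC -0.59), so the members called there no longer shared 1 direction. TAB3 passed the threshold with EGF in 7 of 18 alternative fits.

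**Figure D1:**
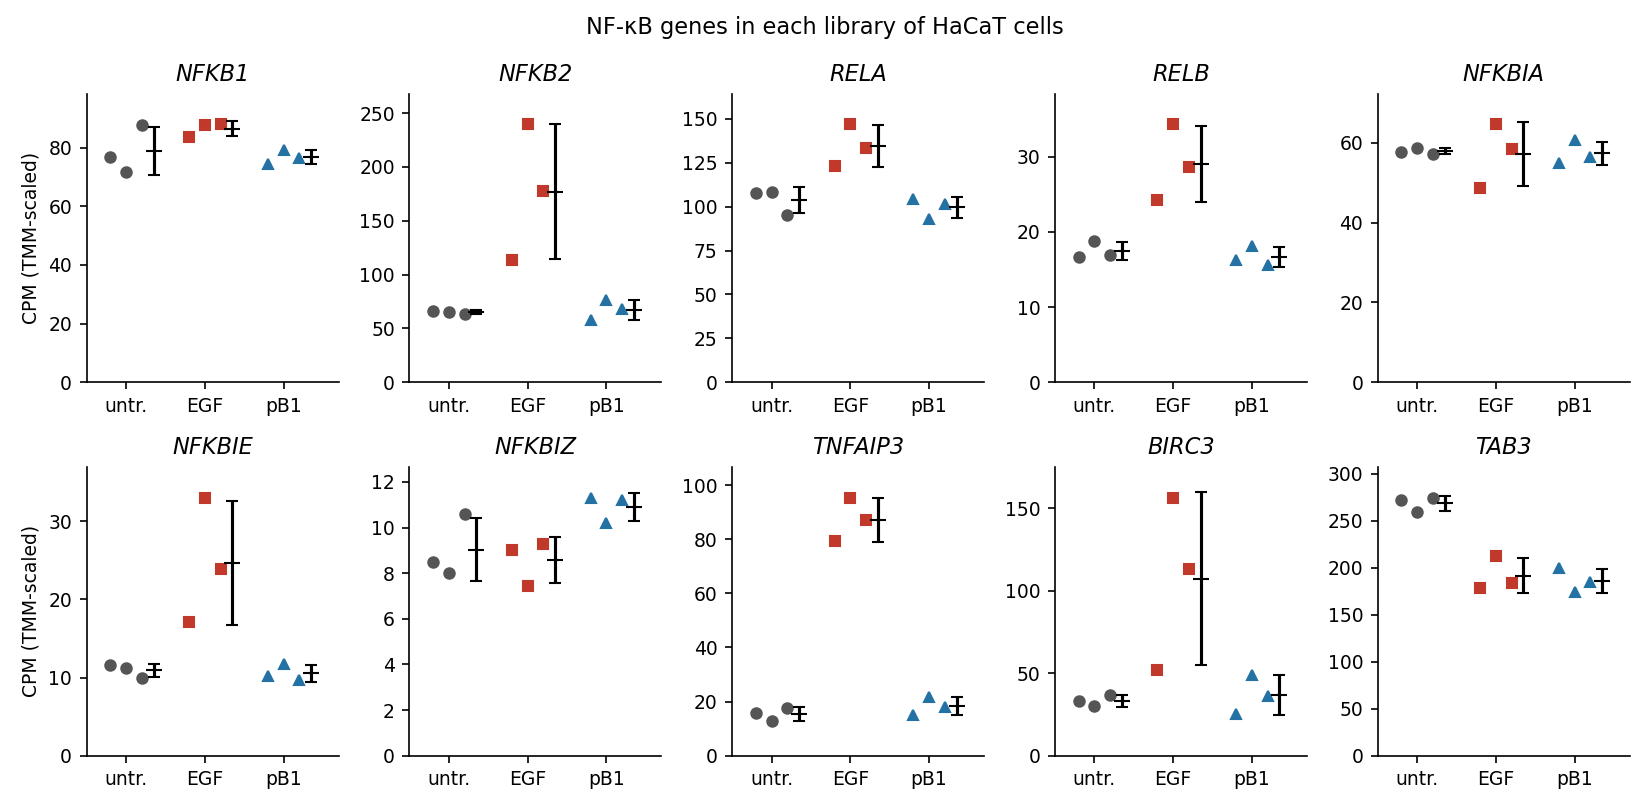
CPM (TMM-scaled, linear axes from 0) of each of the 10 genes in the 9 libraries, with 1 point per library in replicate order from left to right (grey circles untreated, red squares EGF, blue triangles bleogen pB1) and the mean ± SD of each group in black. TNFAIP3 lay between 79.2 and 95.3 CPM under EGF and at most at 21.8 CPM elsewhere, and TAB3 was highest in the 3 untreated libraries.

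NFKB2 (10:102394110-102402524, plus strand, coordinates here and below from GENCODE release 44 on GRCh38) encodes p100, the precursor of p52 and the partner of RELB in the alternative pathway. Its level was 66.4, 65.3 and 63.2 CPM in the untreated libraries, 113.7, 239.4 and 177.9 CPM under EGF and 57.7, 76.3 and 67.7 CPM under bleogen pB1. Every EGF library lay above all others, with a spread within the group (CV 35.5%) that was far wider than among untreated libraries (CV 2.49%). The log2FC under EGF was 1.45 (SE 0.20, adjusted p = 3.1e-05), a 2.73-fold rise.

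RELB (19:45001461-45038192, plus strand), a subunit that pairs mainly with p52 and p100, was at 16.6, 18.8 and 16.9 CPM in untreated cells, 24.2, 34.3 and 28.7 CPM under EGF and 16.3, 18.1 and 15.6 CPM under bleogen pB1. The EGF libraries again lay above all the others, and the other groups overlapped. The rise under EGF was 1.67-fold (log2FC 0.74, SE 0.12, adjusted p = 0.00014).

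RELA (11:65653599-65663090, minus strand) encodes p65 and was measured at 107.9, 108.4 and 95.1 CPM in untreated cells, 123.4, 146.9 and 133.3 CPM under EGF and 104.5, 93.0 and 101.4 CPM under bleogen pB1. Its EGF libraries did not overlap with the untreated ones, but the log2FC of 0.37 (SE 0.08, adjusted p = 0.00086) stayed under the fold threshold. NFKB1 (4:102501330-102617302, plus strand), which encodes p105 and p50, was at 76.7, 71.7 and 87.7 CPM in untreated cells, 83.5, 87.8 and 87.9 CPM under EGF and 74.4, 79.3 and 76.6 CPM under bleogen pB1. The EGF and untreated libraries of NFKB1 overlapped, and the log2FC of 0.13 had a 95% interval from -0.02 to 0.29 (adjusted p = 0.12). Among the subunits NFKB2 and RELB, the pair of the alternative pathway, thus had the 2 called rises, although the 95% interval of RELA (0.21 to 0.54) overlapped with that of RELB (0.48 to 0.99) and the difference between subunits was not tested on this scale.

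NFKBIA (14:35401079-35404749, minus strand) encodes IκBα, the inhibitor that NF-κB is best known to restore after its own activation. It was at 57.8, 58.7 and 57.1 CPM in untreated cells, 48.7, 64.6 and 58.5 CPM under EGF and 54.9, 60.6 and 56.5 CPM under bleogen pB1. The untreated libraries were within a CV of 1.36%, and the EGF libraries lay on both sides of them. The log2FC under EGF was -0.01 with a 95% interval from -0.21 to 0.18 (adjusted p = 0.89). NFKBIE (6:44258166-44265788, minus strand), which encodes IκBε, had 11.6, 11.2 and 9.98 CPM in untreated cells, 17.1, 33.0 and 23.9 CPM under EGF and 10.2, 11.8 and 9.69 CPM under bleogen pB1. All EGF libraries were higher than the rest, and the rise was 2.26-fold (log2FC 1.18, SE 0.19, adjusted p = 0.00012).

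NFKBIZ (3:101827991-101861022, plus strand) encodes IκBζ, a nuclear IκB protein that acts as a cofactor of NF-κB at a subset of its targets. Its level was 8.48, 8.01 and 10.6 CPM in untreated cells, 9.0, 7.45 and 9.29 CPM under EGF and 11.3, 10.2 and 11.2 CPM under bleogen pB1. The EGF and untreated libraries overlapped (log2FC -0.07, 95% interval -0.36 to 0.22, adjusted p = 0.66). In the annotation NFKBIZ overlaps on the same strand with NXPE3, a gene with 323 to 544 expected counts per library, more than NFKBIZ itself with 148 to 240, so its counts are uncertain where the genes share sequence.

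TNFAIP3 (6:137867214-137883314, plus strand) encodes A20, the ubiquitin-editing enzyme that shuts down signalling upstream of the IKK kinases. It had 15.9, 12.8 and 17.7 CPM in untreated cells, 79.2, 95.3 and 87.2 CPM under EGF and 15.0, 21.8 and 18.0 CPM under bleogen pB1. The EGF libraries were separated from all others by a wide gap. The rise of 5.63-fold (log2FC 2.49, SE 0.13, adjusted p = 1.2e-08) was the largest among the members and ranked 75 from the top of the 12394 genes tested. BIRC3 (11:102317484-102339403, plus strand), which encodes the ubiquitin ligase cIAP2, was at 33.0, 30.0 and 37.1 CPM in untreated cells, 52.1, 156.4 and 113.4 CPM under EGF and 25.2, 49.2 and 36.0 CPM under bleogen pB1. Its EGF libraries lay above all others but differed 3.0-fold among themselves, the widest spread of any member. The log2FC was 1.69 (SE 0.31, adjusted p = 4e-04). Both genes overlap with a long non-coding RNA on the opposite strand (WAKMAR2 for TNFAIP3), neither of which was listed in the tables, and the use of strand in the counting is not given in the sources used here.

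Within the EGF group the members followed one order of libraries. Replicate 1 was the lowest library for 9 of the 10 genes and replicate 2 the highest for 8. Over all genes tested replicate 1 was lowest for 39.4% and highest for 40.1%. Replicate 2 was highest for 40.0% of them and lowest for 38.7%, so these libraries were the usual extremes in both directions. The exceptions were NFKBIZ, whose lowest library was replicate 2, and NFKB1 and NFKBIZ, which were highest in replicate 3. The highest EGF library exceeded the lowest by a median factor of 1.29 over the members and 1.17 over all genes, and by 3.0 for BIRC3, 2.11 for NFKB2, 1.93 for NFKBIE and 1.41 for RELB but 1.2 for TNFAIP3. TNFAIP3, the gene with the largest rise, therefore varied least between EGF libraries among the 5 that rose. In the bleogen pB1 group replicate 2 was highest for 7 members, including BIRC3, NFKB2 and TNFAIP3, and lowest for the other 3, RELA, NFKBIZ and TAB3. Over all genes tested it was highest for 39.1% and lowest for 39.8%. Members within a library share its RNA and are not independent of each other.

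**Figure D2:**
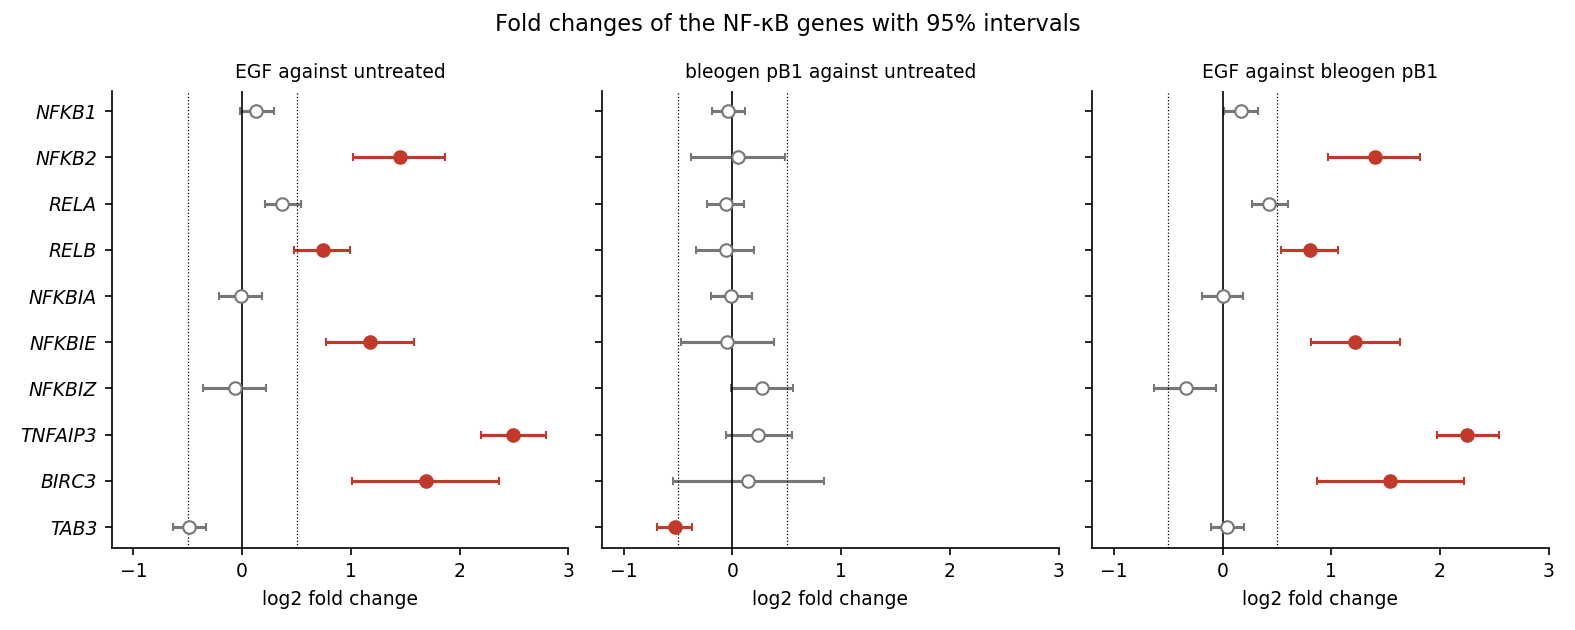
Log2 fold changes of the 10 genes in the 3 comparisons with 95% intervals, red and filled where the gene passed the threshold, with dotted lines at -0.5 and 0.5. With EGF 5 genes lay to the right of the dotted line in both comparisons that include it, and with bleogen pB1 TAB3 alone passed the threshold, on the left.

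With bleogen pB1, 1 of the 10 genes passed the threshold, TAB3, which was lower. Of all genes tested, 1.48% passed in either direction and 1.26% were lower. None of the other 9 members passed at an unadjusted p under 0.05 in edgeR. At that level stood 1 of the 10 members (10%), beside 22.2% of all genes tested. A count this small is not a result about the members. DESeq2 on the same libraries also called 1 member. The median log2FC was -0.02 over the members and -0.001 over all genes. TAB3 was also the 1 member whose bleogen pB1 and untreated libraries did not overlap, while 29.0% of all genes tested did not overlap.

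TAB3 encodes an adaptor that binds ubiquitin chains and thereby brings the kinase TAK1 to the receptor complex. It was at 272.2, 258.8 and 274.2 CPM in untreated cells, 178.5, 212.3 and 184.2 CPM under EGF and 199.6, 173.6 and 184.3 CPM under bleogen pB1. The untreated libraries lay above all 6 treated libraries, and the treated groups overlapped with each other. The level under bleogen pB1 was 0.692 of the untreated level (95% interval of the log2FC -0.69 to -0.37, adjusted p = 0.0015). Without bleogen pB1 replicate 2 the log2FC was -0.49 (adjusted p = 0.0072) and missed the fold threshold, so that no member was called. The log2FC under EGF was just short of the same threshold at an adjusted p of 7.6e-05 and passed it with upper-quartile scaling (log2FC -0.59), which moved the median of all genes to -0.118. TAB3 is a gene of the X chromosome (X:30827442-30975084, minus strand) and overlaps with the antisense RNAs TAB3-AS1 and TAB3-AS2, which were not listed in the tables.

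For the other 9 genes the fit set limits on a change with bleogen pB1 rather than an absence of one. The width of these limits rests on a spread shared by all 9 libraries, those with EGF included. The CV of NFKB2 was 35.5% under EGF, 2.49% in untreated and 13.9% in bleogen pB1-treated cells. For BIRC3 it was 48.9%, 10.8% and 32.7%. The 95% intervals of the log2FC ran from -0.19 to 0.12 for NFKB1, from -0.23 to 0.11 for RELA and from -0.20 to 0.18 for NFKBIA, and so excluded a change as large as the threshold of 0.5. They also lay inside the threshold for RELB (-0.33 to 0.20), NFKB2 (-0.38 to 0.48) and NFKBIE (-0.47 to 0.38). The intervals reached past 0.5 for NFKBIZ (-0.01 to 0.56), TNFAIP3 (-0.06 to 0.55) and BIRC3 (-0.55 to 0.84), so that a change of that size was not excluded for these genes.

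The direct comparison of both agents gave 5 members higher under EGF than under bleogen pB1 and none lower, beside 28.8% of all genes in either direction and 10.8% higher. They were TNFAIP3 (log2FC 2.25, SE 0.13, adjusted p = 3.6e-08), BIRC3 (1.54, SE 0.31), NFKB2 (1.40, SE 0.20), NFKBIE (1.22, SE 0.19) and RELB (0.80, SE 0.12), with adjusted p of at most 0.00098. RELA was 0.43 higher (adjusted p = 0.00039) and NFKBIZ 0.34 lower on the log2 scale (log2FC -0.34, adjusted p = 0.04), both under the fold threshold. For NFKBIZ every EGF library lay below every bleogen pB1 library, the opposite direction to the called genes. The groups did not overlap for 8 of the 10 genes, 7 of them higher under EGF, against 62.4% of all genes. For TAB3 the difference between the agents was 0.04 with a 95% interval from -0.11 to 0.20, and for NFKBIA it was 0.00 with an interval from -0.19 to 0.19, so that differences of more than 0.20 lay outside both intervals. Both treatments share the untreated libraries, so the 2 fold changes against them are not independent.

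The balance between genes was taken as a ratio of FPKM within each library, which does not depend on scaling between libraries. The ratio of the inhibitor NFKBIA to RELA was 0.898, 0.906 and 1.01 in untreated cells, 0.661, 0.734 and 0.732 under EGF and 0.883, 1.09 and 0.935 under bleogen pB1. Every EGF library had less NFKBIA per RELA than any other library, with a log2 difference from untreated of -0.40 (SE 0.07). The ratio of RELB to RELA was 0.175, 0.197 and 0.202 in untreated cells, 0.223, 0.264 and 0.244 under EGF and 0.177, 0.221 and 0.174 under bleogen pB1. RELB thus rose relative to RELA with EGF, by 0.35 (SE 0.10) on the log2 scale and without overlap. The ratio of NFKB2 to NFKB1 was 1.11, 1.17 and 0.925 in untreated cells, 1.76, 3.51 and 2.60 under EGF and 0.995, 1.23 and 1.13 under bleogen pB1. From near equal levels NFKB2 came to exceed NFKB1 in each EGF library (log2 difference 1.25, SE 0.31). The exact two-sided permutation test gave p = 0.1, the smallest possible value, for each of the 3 ratios in EGF against untreated and in EGF against bleogen pB1 (0.15 after Benjamini-Hochberg adjustment over the 9 comparisons). In bleogen pB1 against untreated the same exact permutation test gave p = 0.7, 0.9 and 0.6, with log2 differences of 0.05 (SE 0.11), -0.01 (SE 0.13) and 0.07 (SE 0.14).

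The rest of the pathway was taken from a list of 68 further genes, of which 62 were tested. With EGF 16 of them rose and 16 fell (51.6% of the list, beside 36.9% of all genes tested), with a median log2FC of 0.06. The list holds other subunits and IκB proteins (3 of 6 tested rose, none fell), kinases and adaptors (7 of 29 rose, 8 fell), other negative regulators (4 of 14 rose, 3 fell) and receptors (2 of 13 rose, 5 fell). The largest rises were BCL3, a nuclear IκB protein that binds p50 and p52 (5.36 CPM in untreated cells, range 4.96 to 5.74, and 14.1 CPM under EGF, range 12.7 to 15.1, log2FC 1.39), the adaptor TRAF1 (1.37) and the receptor TLR4 (1.21). The largest falls were the receptors TLR1 (-2.87), TNFRSF11A (-1.66) and TLR5 (-1.65). Against bleogen pB1, EGF gave 14 higher and 12 lower genes (41.9%, beside 28.8% of all genes), led by BCL3 (1.37), TRAF1 (1.37) and TLR4 (1.30) and by TLR1 (-2.82), TLR5 (-1.89) and the interleukin 1 receptor IL1R1 (-1.45). All of these genes had adjusted p of at most 0.00083 in the comparisons named.

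Several protein complexes of the list were singled out after their values were seen. The members of the CARD10, BCL10 and MALT1 complex, which is known to link receptors including the EGF receptor to the IKK kinases, all rose with EGF (log2FC 0.88, 1.07 and 0.70, adjusted p of at most 4.4e-06). Of the linear ubiquitin ligase complex RNF31 fell (-0.58), and RBCK1 (-0.39) and SHARPIN (-0.47) were under the fold threshold. Among the proteins that work with A20, the ligase ITCH (0.56) and the adaptors TNIP1 (0.61) and TNIP2 (0.67) rose, and TAX1BP1 (0.30) and RNF11 (0.22) were under the threshold. Of the IKK subunits CHUK (IKKα) rose by 0.82 and IKBKB (IKKβ) fell by 0.50, and IKBKG had a log2FC of 0.38. Of the other TAK1-binding adaptors, TAB1 fell by 0.78 under EGF with a log2FC of -0.11 (adjusted p = 0.49) under bleogen pB1, and TAB2, at 39.6 FPKM in untreated cells close to the level of TAB3, had log2FC of 0.12 and 0.02.

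Of 34 known target genes 26 were tested, and with EGF 10 rose and 9 fell (73.1% of those tested, beside 36.9% of all genes), with a median log2FC of 0.06. The cytokine gene CSF2 had at most 0.0491 CPM in untreated cells, under the smallest level that can be shown, and 1.64 to 2.01 CPM under EGF. The early response gene IER3 rose from 42.3 CPM (range 41.7 to 43.4) to 435.3 CPM (range 424.9 to 450.7, log2FC 3.36), and the protease gene MMP9 had a log2FC of 2.44. The largest falls were the chemokines CCL2 (-4.05, down to 0.144 to 0.250 CPM, close to the smallest level that can be shown) and CCL5 (-1.67, from 38.8 to 54.2 CPM in untreated to 10.4 to 20.7 CPM in EGF-treated cells) and the complement component C3 (-1.36). Against bleogen pB1, EGF gave 9 higher and 6 lower target genes (57.7%, beside 28.8% of all genes), with IER3 (3.11) and the chemokine CXCL8 (2.21) beside CSF2 among the highest and CCL2 (-3.85), CCL5 (-1.56) and TNFAIP2 (-1.47) the lowest. The fold changes named here had adjusted p of at most 0.00027.

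With bleogen pB1 none of the 62 pathway genes and none of the 26 target genes passed the threshold in edgeR or in DESeq2. As 1.48% of all genes passed it, a count of 0 in lists of this size is close to the background and is not a result about the lists. At an unadjusted p under 0.05 edgeR gave 17 pathway genes (27.4%), 6 higher and 11 lower, and 8 target genes (30.8%), 2 higher and 6 lower, beside 22.2% of all genes. At an adjusted p of at most 0.05 without the fold threshold there were 5 pathway genes, MYD88 (-0.39), TRAFD1 (-0.40), NLRC5 (-0.37), TLR3 (-0.36) and TNFRSF21 (0.26), and 1 target gene, SDC4 (-0.31), which amounted to 8.06% and 3.85% of the lists beside 4.11% of all genes (509 of 12394). These were named after their values were seen.

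**Figure D3:**
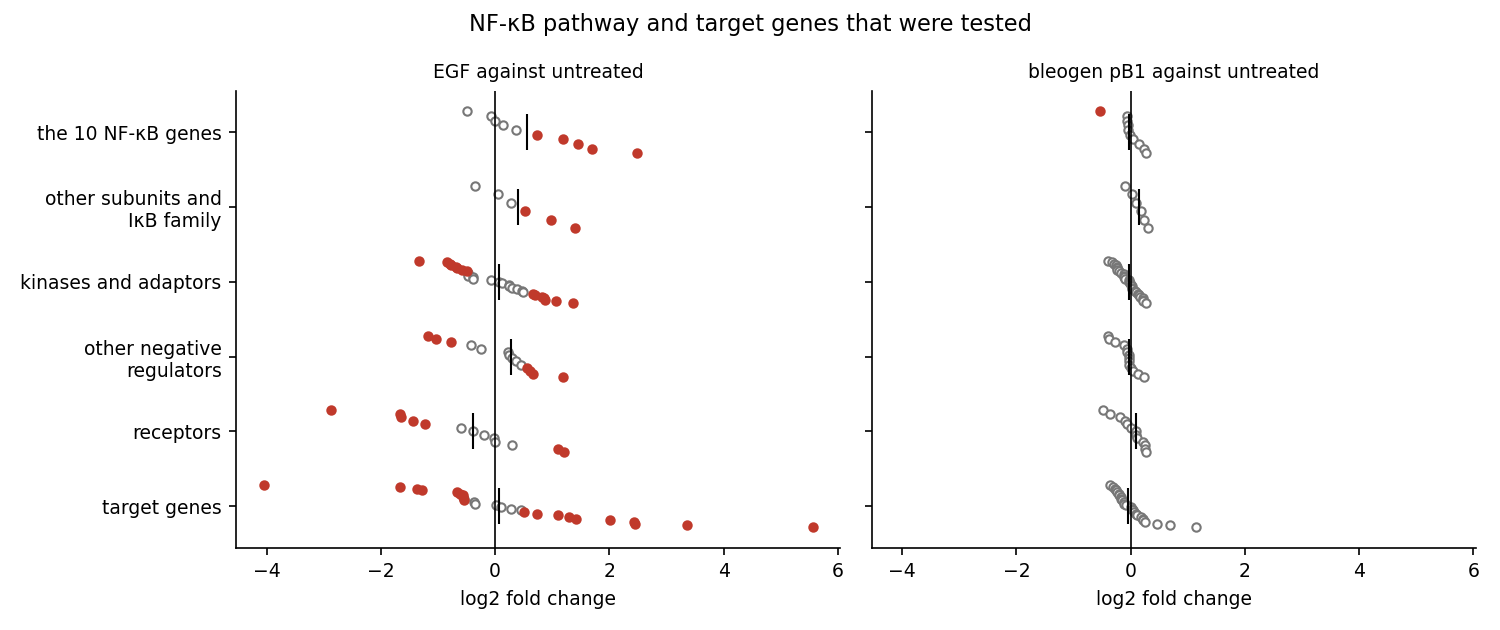
Log2 fold changes of the 10 genes, of the tested genes of the pathway list by role and of the tested target genes, with EGF (left) and bleogen pB1 (right) against untreated cells, red and filled where a gene passed the threshold, with a black bar at each median. With EGF the genes that passed lay on both sides of 0 in each list but the members and the other subunits and IκB family, and the point farthest right is CSF2, whose untreated level was under the smallest that can be shown.

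The genes most like a member over the 9 libraries were taken by Pearson's r of log2 CPM. For TNFAIP3, the member with the largest change under EGF, they were SSFA2 (r = 0.9981), MBOAT2 (r = 0.9972) and SERPINE2 (r = 0.9972), and 1158 genes had an r of at least 0.95. SERPINE2 was at 10.8 ± 2.11 CPM in untreated, 212.7 ± 1.65 CPM in EGF-treated and 16.3 ± 5.96 CPM in bleogen pB1-treated cells (SD, n = 3). For TAB3, the member with the largest change under bleogen pB1, 11 genes reached that r, led by SREBF1 (r = 0.9914), DVL2 (r = 0.988) and ALDOC (r = 0.9861). SREBF1, which encodes a transcription factor of lipid synthesis, was at 912.2 ± 28.4 CPM in untreated cells, 540.5 ± 64.6 CPM under EGF and 489.2 ± 44.6 CPM under bleogen pB1, and so was lower with both agents as TAB3 was. The libraries form 3 groups, so such an r describes mainly the group means.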

How the data were processed

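RNA-seq of 9 HaCaT libraries was used, in 3 groups of 3 assigned from the titles and treatments in the labels. Per gene and library the authors deposited an expected count, an unscaled estimate from reads mapped to GRCh38.p12 (submitters' processing notes); the counting program is not given in the sources used here. They also deposited FPKM, scaled by the authors for gene length and depth. The labels describe stranded libraries. A gene without an entry in a library was counted as 0.

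After rounding, the expected counts entered edgeR 4.0.16 under R 4.3.3 (filterByExpr, TMM, glmQLFit, glmQLFTest; 12394 genes; 1 coefficient per group; 6 residual degrees of freedom). Calls required an adjusted p no higher than 0.05 and a log2FC no smaller than 0.5 in either direction, following the study, whose tool was DESeq2. The depth of 20288417 to 21320994 counts gives a floor of 3 counts (0.141 to 0.148 CPM before TMM adjustment), which covers counting error only. Alternatives were DESeq2 1.42.0, limma 3.58.1 on log2(FPKM + 1) or log2(FPKM + 0.1), other scaling factors, filters, call rules, each library left out and a replicate block. In simulated counts with 200 genes changed 2-fold in the EGF columns, edgeR recovered 181 of them with 7 false calls among 12281 genes. The simulation gave all groups the same spread. In the data 4578 of 12394 genes were called with EGF. The biological coefficient of variation was 0.0961 in the EGF, 0.0833 in the bleogen pB1 and 0.0497 in the untreated group. The simulated rates therefore do not carry over to EGF or to bleogen pB1 against untreated. Ratios and levels were compared by exact permutation (scipy 1.17.1).

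The members and gene lists were chosen with earlier results of these data known. Named genes are the 10 members, per list and comparison the called genes with the 3 largest rises and falls, and the 3 genes most like the member with the largest change under each agent. The other genes named in the text, such as the complexes of the pathway list and the genes at the adjusted p alone with bleogen pB1, were chosen after their values were seen.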

Additional observations from a re-analysis of the deposited data

How the results depend on the processing

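Of 189 recomputed counts of called genes 178 stayed within 1.5 times the value given, and of 540 recomputed fold changes of the members 508 kept their direction and their side of the threshold. The number of members called with bleogen pB1 was 0 at a log2FC of at least 1, beside 31 of all 12394 genes. In glmTreat it was 0, beside 5 of all genes, and with a library left out it was 0 to 1. TAB3 passed the threshold under EGF with upper-quartile factors (-0.59), without scaling (-0.54), in limma on log2(FPKM + 1) with or without a filter (-0.53) and on log2(FPKM + 0.1) (-0.55), and without untreated replicate 2 (-0.51) or EGF replicate 2 (-0.56). Without the fold threshold 52 pathway genes (83.9%) were called with EGF, 5 (8.06%) with bleogen pB1 and 47 (75.8%) in EGF against bleogen pB1. The shares of all genes in the same order were 66.1%, 4.11% and 58.2%. With bleogen pB1, 1 target gene (3.85%) was called. At a log2FC of at least 1 there were 14 of 62 pathway and 12 of 26 target genes with EGF, beside 1892 of all 12394 genes. In EGF against bleogen pB1 there were 10 pathway genes, beside 1458 of all genes. There glmTreat gave 16 pathway genes, beside 2026 of all genes. In these counts the change follows from the call rule.

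Signs that turned were of fold changes near 0, none of them called. In bleogen pB1 against untreated NFKBIA was 0.00 without scaling and 0.01 in the limma fits. In EGF against bleogen pB1 NFKBIA was 0.01 in DESeq2 on 9 libraries and with RLE factors and 0.00 in DESeq2 on 6 and without a filter, and TAB3 was -0.04 with upper-quartile factors and -0.03 without scaling and in the limma fits. With a library left out the log2FC under EGF ranged from -0.15 to 0.06 for NFKBIZ and from -0.10 to 0.09 for NFKBIA. Under bleogen pB1 it ranged from -0.10 to 0.05 for NFKB1, -0.06 to 0.02 for NFKBIA, -0.05 to 0.15 for NFKB2, -0.13 to 0.35 for BIRC3 and -0.14 to 0.01 for NFKBIE. In EGF against bleogen pB1 it ranged from -0.09 to 0.11 for NFKBIA and from -0.03 to 0.10 for TAB3. The cause was not tested. Ratios of expected counts gave the same directions as ratios of FPKM.

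The labels give libraries no more than a shared replicate number. Same-numbered deviations from the group means correlated at 0.045, 0.036 and 0.004 between EGF and untreated libraries, at 0.207, -0.03 and 0.113 between bleogen pB1 and untreated libraries and at 0.056, 0.038 and 0.027 between EGF and bleogen pB1 libraries, so that in no comparison was every pair over 0.1. With the replicate block 4560 genes were called with EGF against 4578 without it, 5 members with EGF and 1 with bleogen pB1, as without it. The lowest member had 148 expected counts in a library, and whether more depth would narrow the intervals was not tested.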
